A study of Mus musculus with 7 samples.

Results

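The genes described here encode the nuclear subunits of the mitochondrial respiratory chain, measured in whole mouse embryos with and without Adnp. They were taken by name: every probe set with a single gene symbol that begins with Nduf, Uqcr, Atp5 or Sdha to Sdhd, or that reads Cox4 to Cox8 followed by a letter, was included. Each gene was represented by its probe set of highest mean signal over the 7 arrays. This gave 87 genes, from 160 probe sets, of the 12393 genes on the array that had a single-symbol probe set. Of the 87, 79 encode subunits: 33 of complex I, 4 of complex II, 8 of complex III, 17 of complex IV and 17 of complex V. The other 8 are assembly factors that share the name stems, 5 for complex I (Ndufaf1, Ndufaf3, Ndufaf4, Ndufaf5 and Ndufaf7) and 3 for complex II (Sdhaf1, Sdhaf2 and Sdhaf4). Ndufa4 was counted with complex IV, where its protein is now placed, despite its name. Subunits encoded by the mitochondrial genome were not analysed here, so the values describe the nuclear share of each complex. A filter on dim genes was passed by 85 of the 87, and the muscle isoforms Cox7a1 and Cox8b did not pass it.

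The embryos were ADNP gene knockouts (2 arrays), their ADNP+/- heterozygous littermates (3 arrays) and their wild-type littermates (2 arrays), all on C57BL/6 and on embryonic day 9. Adnp, activity-dependent neuroprotective protein, is a zinc finger and homeobox protein of chromatin, and embryos without it die in utero. Each array held RNA pooled from 2 littermates of 1 genotype, 14 embryos in all, with the sexes mixed according to the labels. The body had been separated from yolk sac and amnion, and the yolk sac gave the DNA for genotyping. The knockout is inherited and present in all cells of the embryo.

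The respiratory chain carries electrons taken from NADH by complex I, and from succinate by complex II, through ubiquinone to complex III, by cytochrome c to complex IV and on to oxygen. Complexes I, III and IV pump protons across the inner mitochondrial membrane, and complex V, the ATP synthase, uses their return to make ATP. Embryos at this stage change from a largely glycolytic metabolism towards oxidative phosphorylation as the heart starts to beat and the placental circulation forms. Subunits are made in the cytosol from nuclear genes, imported, and joined with those made inside the organelle by dedicated assembly factors.

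Many nuclear respiratory genes are known to be controlled through short promoter motifs for the factors NRF1, GABPA, an ETS factor, YY1 and the estrogen-related receptor ERRA. The promoters of 4 members are shown here, each as the 150 bases before the transcription start on the coding strand, from RefSeq on build GRCm38.p6. Ndufv3 (chr17:31519965-31520114, plus strand) and Sdhaf1 (chr7:30322376-30322525, minus strand) are the members whose signals passed the test in a comparison. Sdha (chr13:74350241-74350390, minus strand) and Sdhd (chr9:50603850-50603999, minus strand) encode subunits of complex II and hold motif matches. Capitals mark matches on either strand to the NRF1 motif, GCGCA, any 1 base, then GCGC, and to the ETS motif, CCGGAAG.
Ndufv3: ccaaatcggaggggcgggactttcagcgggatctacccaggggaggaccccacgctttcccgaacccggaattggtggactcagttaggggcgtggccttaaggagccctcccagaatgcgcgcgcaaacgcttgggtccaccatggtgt
Sdhaf1: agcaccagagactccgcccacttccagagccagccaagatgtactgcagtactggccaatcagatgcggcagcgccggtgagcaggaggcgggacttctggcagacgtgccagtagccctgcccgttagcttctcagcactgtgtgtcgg
Sdha: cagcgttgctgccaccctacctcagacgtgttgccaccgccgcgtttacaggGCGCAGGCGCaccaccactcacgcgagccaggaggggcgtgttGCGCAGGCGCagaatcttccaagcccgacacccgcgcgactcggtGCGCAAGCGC
Sdhd: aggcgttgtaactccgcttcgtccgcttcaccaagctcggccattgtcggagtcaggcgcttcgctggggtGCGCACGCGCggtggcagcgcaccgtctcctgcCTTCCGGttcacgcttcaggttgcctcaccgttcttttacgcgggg

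The Sdha promoter held 3 NRF1 matches, which begin 98, 55 and 10 bases before the start, and that of Sdhd held 1 NRF1 match, 79 bases before the start, and 1 ETS match, 46 bases before it. The printed windows of Ndufv3 and Sdhaf1 held none of the letters searched. A promoter was found for 73 of the 87 members. Over the 250 bases before the start, the NRF1 letters occurred in 11 of the 73 (15.1%) and in 5.84% of 17491 coding genes. The ETS letters occurred in 14 members (19.2%) and in 10.2% of coding genes. AAGATGGC for YY1 was found in 1 member, Atp5j (1.37%), and in 1.77% of coding genes, and TCAAGGTCA for ERRA was found in 1 member, Atp5g3, and in 0.36% of coding genes. These are matches of letters, not measured binding, and they were searched on both strands.

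Signals on the arrays are brightness values, scaled by the authors so that each array has about the same overall level. The median signal per array was 55.5 to 57.4. Arrays correlated with each other at a Pearson r of 0.924 to 0.982 on the log2 scale, across the 8019 genes past the filter. With 2 or 3 pools a genotype, precision is limited by the number of arrays, and p-values measure the spread between these pools. The only probe set naming Adnp is shared with Dpm1, and its signal was 1781 ± 140.5 in knockout, 1099 ± 106 in heterozygous and 961.4 ± 90.8 in wild-type pools (SD, n = 2, 3 and 2), so the labels could not be checked with it. Markers of visceral endoderm had a higher summed signal in knockout pools. The sum over 22 genes was 12986 and 15285 on the knockout arrays, against 1531 to 2755 on the heterozygous and 1404 to 3939 on the wild-type arrays. Of the 21 tested, 12 rose between knockout and wild type (limma), where 1.96% of all genes did. None of 9 primitive erythroid markers passed against wild type (limma; 1 at an unadjusted p under 0.05). The Y-linked gene Kdm5d had signals of 55.3 and 102.9 in knockout, 46.7 to 90.3 in heterozygous and 4.3 and 10.0 in wild-type pools. What part either difference has in the values below was not tested.

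No member of the respiratory chain passed the test between knockout and wild-type embryos. Of the 85 members tested, 0 had an adjusted p under 0.05 (limma, Benjamini-Hochberg over all 8019 genes), where 3.3% of all genes did, 157 higher (1.96%) and 108 lower (1.35%). At an unadjusted p under 0.05 there were 7 of 85 (8.24%), against 19.1% of all genes. These 7 were Ndufv3, Cox7a2l and Atp5mpl, with higher signals in knockout embryos, and Atp5a1, Atp5k, Atp5o and Sdhaf2, with lower ones. The log2 difference between knockout and wild type was above 0 in 40 of 85 members, against 47.8% of all genes, and its median was -0.01 over the members and -0.01 over all genes. Leaving out heterozygous replicate 1, which only informs the spread, gave 1 call, Ndufv3 (limma, adjusted p = 0.0367), and leaving out wild-type replicate 1 gave 1 call, Cox7a2l (0.0483).

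The differences of the members lay in a narrow range. Between knockout and wild type the median size of the log2 difference was 0.11 for members and 0.19 for all genes, 9 in 10 members differed by less than 0.28, and the largest size was 0.45, against 4.92 among all genes. The limma 95% interval stayed within 2-fold either way for 84 of the 85 members, against 85.3% of all genes, and within 1.5-fold for 70 of the 85, against 45.8%. Cox7c, a small subunit of complex IV, was the exception at 2-fold, with signals of 42.1 and 73.4 in knockout, 68.4, 66.8 and 46.9 in heterozygous and 42.6 and 39.9 in wild-type pools. These signals lay near the floor of the filter, and the gene's other probe set did not pass it. The knockout pools of Cox7c lay apart from each other, and its interval ran from -0.24 to 1.05 on the log2 scale. The members were also brighter than most genes, with a median signal of 657.9 against 156.9, and varied less between arrays of a genotype, with a median residual SD of 0.13 against 0.17 log2 units. Whether their narrow range differs from that of equally bright genes was not tested. RNA from whole embryos does not tell fewer cells of a type from less RNA per cell.

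**Figure D1:**
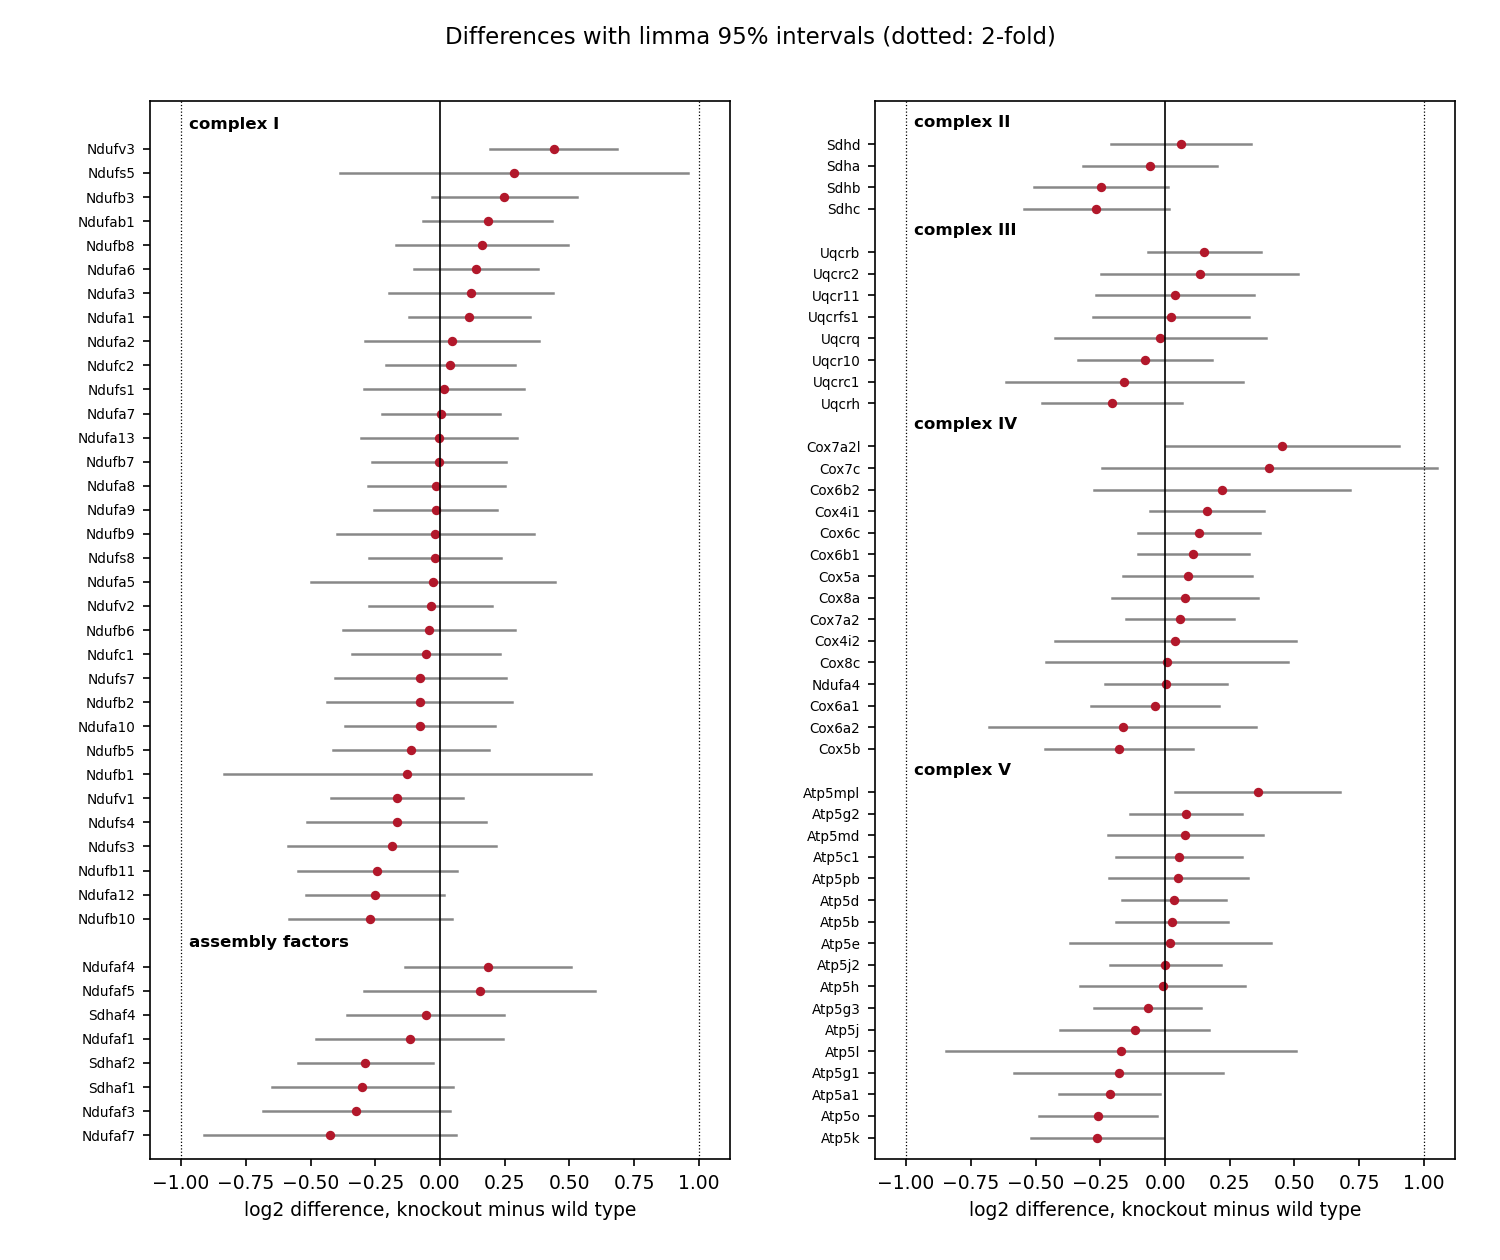
Log2 difference, knockout minus wild type, of each of the 85 members (points) with its limma 95% interval (bars), by complex, and the assembly factors. Dotted lines mark 2-fold. The interval of Cox7c alone passes a dotted line, and that of Ndufv3 lies farthest from 0 on the high side.

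Complex I takes electrons from NADH through a peripheral arm in the matrix and pumps protons through an arm in the membrane. The 33 measured subunits, 6 of them catalytic core subunits and 27 accessory, had a median log2 difference of -0.02 between knockout and wild type and of -0.02 between knockout and heterozygous embryos, against -0.01 and -0.02 over all genes. These comparisons share the knockout arrays. Ndufv3, a small accessory subunit next to the NADH-binding site, was the exception. Its signals were 897.6 and 923.0 in knockout pools, 740.2, 678.0 and 652.8 in heterozygous pools and 708.2 and 634.9 in wild-type pools. Both knockout pools lay above all others, and the heterozygous and wild-type values overlapped. Ndufv3 rose against heterozygous embryos by 0.40 (SE 0.10; limma, adjusted p = 0.0483). Against wild type the difference was 0.44 (SE 0.11, 95% interval 0.19 to 0.68), just outside the threshold (limma, adjusted p = 0.0609). The call against heterozygous embryos was lost when any array other than heterozygous replicate 1 was left out (limma, adjusted p 0.0644 to 0.258), while the difference itself stayed between 0.36 and 0.45.

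The 6 core subunits of complex I had small differences of which none passed. Ndufs1, which carries iron-sulphur clusters in the peripheral arm, had signals of 385.8 and 425.1 in knockout, 469.6, 365.2 and 405.4 in heterozygous and 384.3 and 417.8 in wild-type pools, and all 3 groups overlapped. Ndufv1, which holds the flavin that accepts electrons from NADH, had 493.0 and 545.9 in knockout, 621.0, 595.7 and 551.2 in heterozygous and 603.2 and 563.1 in wild-type pools. Its knockout pools were below the other 5. Of the other core subunits, the knockout pools lay below both wild-type pools for Ndufs3 and overlapped them for Ndufs7, Ndufs8 and Ndufv2, and 0 of the 6 core subunits passed in any comparison (limma, 0 also at an unadjusted p under 0.05). All 6 differences between knockout and heterozygous embryos were below 0, at -0.19 to -0.02, and 5 of 6 were below 0 between knockout and wild type, where 47% and 47.8% of all genes lay above 0. Without knockout replicate 1, 4 of 6 were below 0 against heterozygous embryos and 2 of 6 against wild type, and without heterozygous replicate 1, 4 of 6 against heterozygous embryos. With the mean of all probe sets it was 4 of 6 against heterozygous embryos and 3 of 6 against wild type. Between heterozygous and wild-type embryos 0 of 6 were below 0, and 0 to 4 under the 19 alternatives, 4 of them without heterozygous replicate 1.

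Among the accessory subunits the lowest values in knockout embryos were those of Ndufb10, of the membrane arm, and Ndufa12, of the peripheral arm. Ndufb10 had signals of 259.6 and 254.6 in knockout, 267.3, 331.0 and 267.6 in heterozygous and 323.2 and 298.2 in wild-type pools, a difference of -0.27 against wild type (SE 0.14, 95% interval -0.58 to 0.04; limma, adjusted p = 0.339). Ndufa12 had 852.6 and 841.3 in knockout, 1015, 959.4 and 942.7 in heterozygous and 903.2 and 1126 in wild-type pools, a difference of -0.25 (SE 0.12; adjusted p = 0.289). For both genes the knockout pools were the lowest 2 of the 7, yet neither passed. The next highest after Ndufv3 was Ndufs5, a small accessory subunit, with 278.4 and 260.8 in knockout, 195.5, 353.8 and 256.3 in heterozygous and 304.1 and 159.7 in wild-type pools. Its difference of 0.28 against wild type (SE 0.30) rested on wild-type replicate 2 and was -0.17 without that array. Non-overlapping knockout and wild-type pools were seen in 5 of the 33 with knockout higher (Ndufa1, Ndufa6, Ndufab1, Ndufb3 and Ndufv3), against 24.7% of all genes, and in 5 with knockout lower (Ndufa12, Ndufb10, Ndufb11, Ndufs3 and Ndufv1), against 28.2%.

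**Figure D2:**
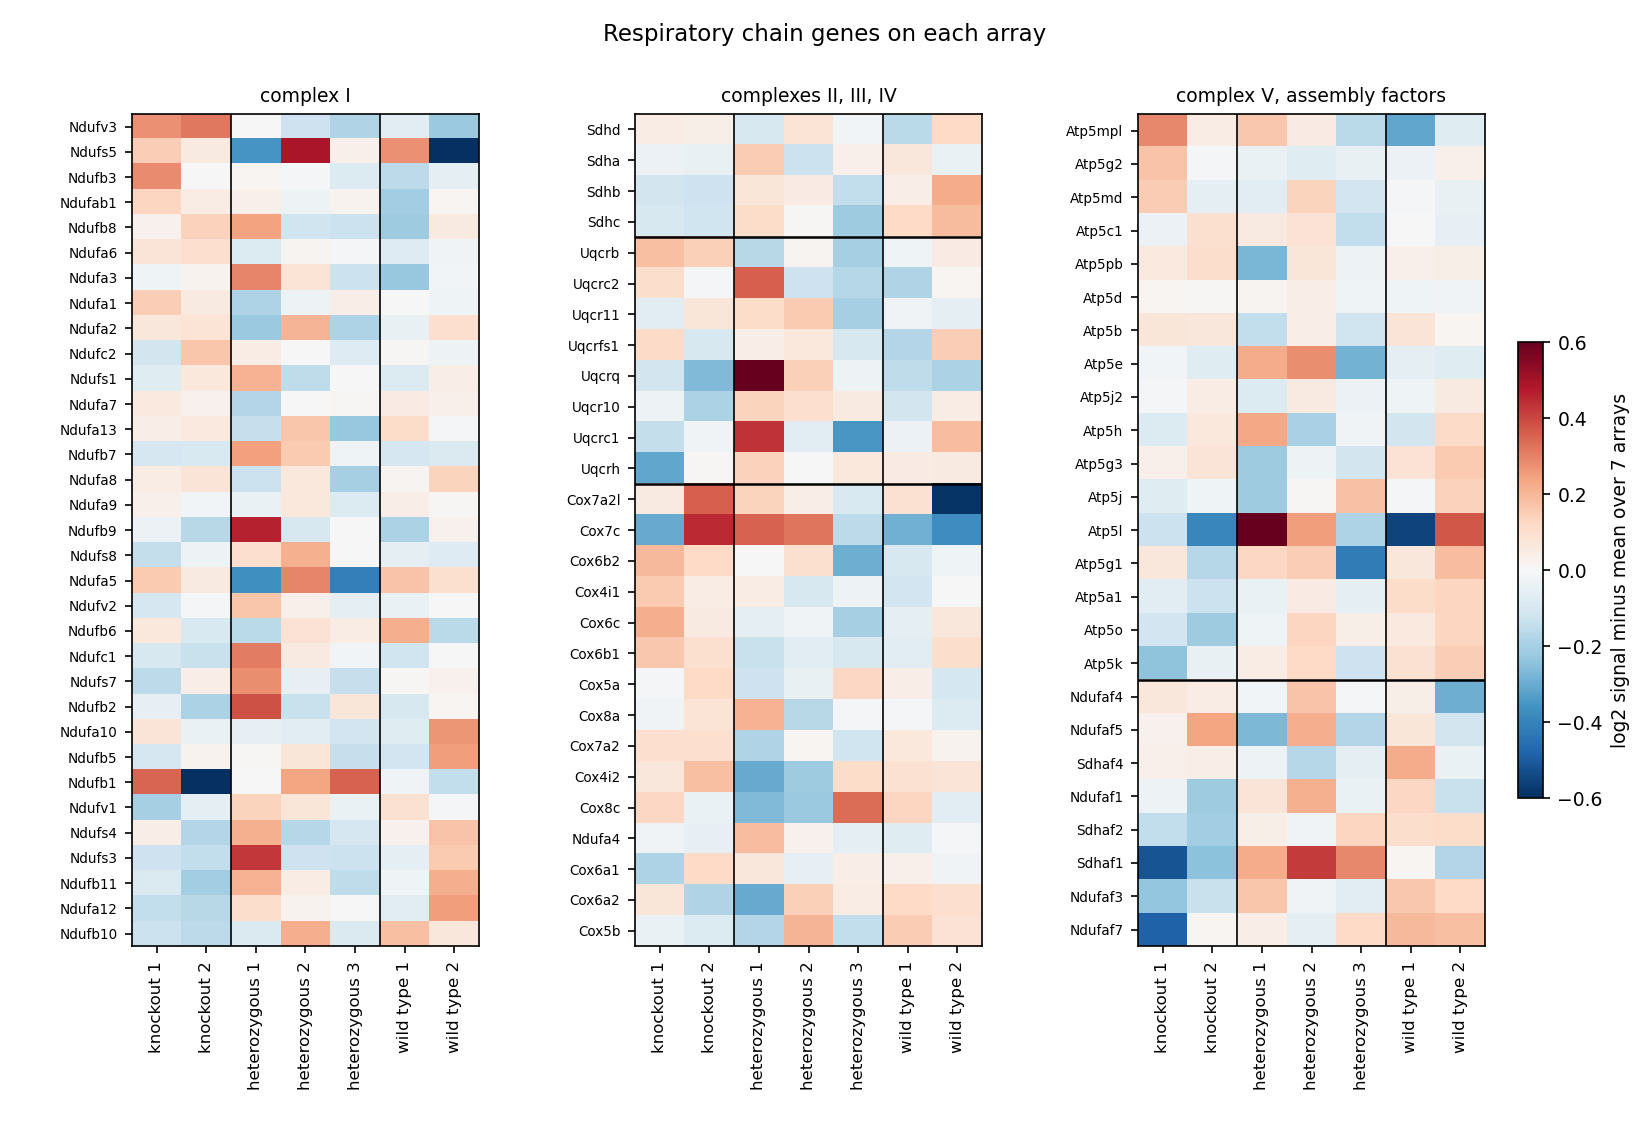
Log2 signal of each of the 85 members on each of the 7 arrays, minus the gene's mean over the arrays (colour, cut at 0.6 either way), with genes in rows by complex, ordered by their difference between knockout and wild type, and arrays in columns. Ndufv3 is high on both knockout arrays and Sdhaf1 is low on both, while Uqcrq and Atp5l are highest on heterozygous replicate 1.

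Complex II, succinate dehydrogenase, is also an enzyme of the TCA cycle and is encoded wholly by nuclear genes. Its 4 subunits had a median log2 difference of -0.15 between knockout and wild type, -0.07 between knockout and heterozygous embryos and -0.07 between heterozygous and wild-type embryos. Sdhb, the iron-sulphur subunit, had signals of 802.0 and 793.6 in knockout, 912.0, 896.5 and 780.4 in heterozygous and 888.9 and 1010 in wild-type pools. Sdhc, a membrane anchor, had 488.7 and 481.2 in knockout, 564.8, 525.4 and 451.5 in heterozygous and 569.6 and 597.8 in wild-type pools. For both, the knockout pools lay below wild type and within the heterozygous range. The differences against wild type were -0.25 for Sdhb (SE 0.12, 95% interval -0.51 to 0.01; limma, adjusted p = 0.285) and -0.27 for Sdhc (SE 0.13, -0.55 to 0.01; adjusted p = 0.289). Sdhc has a second probe set past the filter, with a difference of -0.46, of the same sign.

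Sdha and Sdhd lay nearer to 0. Sdha, the flavin subunit that oxidises succinate, had 781.2 and 776.0 in knockout, 890.7, 732.2 and 819.8 in heterozygous and 841.0 and 779.4 in wild-type pools, a difference of -0.06 against wild type (SE 0.12). Sdhd, the other membrane anchor, had 760.2 and 754.6 in knockout, 688.8, 781.9 and 728.0 in heterozygous and 658.7 and 800.7 in wild-type pools, a difference of 0.06 (SE 0.12). For Sdhd the wild-type pools lay on either side of both knockout pools, and the difference was -0.08 without wild-type replicate 1. The 4 genes thus did not share a direction, and 0 passed (limma, 0 also at an unadjusted p under 0.05).

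Of the assembly factors, Sdhaf1, which helps insert the iron-sulphur clusters of Sdhb, was the second member to pass a test. Its signals were 113.8 and 138.5 in knockout, 192.8, 221.7 and 201.8 in heterozygous and 166.3 and 145.3 in wild-type pools. The groups did not overlap, and wild type lay between the others. Against heterozygous embryos Sdhaf1 fell by 0.69 in log2 units (limma, SE 0.14, adjusted p = 0.0231), while its difference was -0.30 against wild type (SE 0.16; adjusted p = 0.337) and 0.39 between heterozygous and wild-type embryos (SE 0.14; adjusted p = 0.999). The call was lost without heterozygous replicate 3 (limma, adjusted p = 0.060), knockout replicate 1 (0.188) or knockout replicate 2 (0.0868). The gene has a single probe set on the array.

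Several other assembly factors had low knockout values that did not pass. Sdhaf2, which helps attach the flavin to Sdha, had 283.0 and 270.9 in knockout, 321.6, 309.7 and 343.9 in heterozygous and 338.5 and 339.2 in wild-type pools, a difference of -0.29 against wild type (SE 0.12, 95% interval -0.55 to -0.03; limma, adjusted p = 0.221). Ndufaf3, which works with Ndufaf4 in early complex I assembly, had 87.6 and 94.3 in knockout, 116.9, 102.3 and 99.2 in heterozygous and 116.3 and 113.0 in wild-type pools (-0.32, SE 0.16; adjusted p = 0.317). With these probe sets both genes were lowest on the knockout arrays. A second probe set of Sdhaf2 past the filter had 57.5 and 61.1 in knockout, 57.1, 47.6 and 53.2 in heterozygous and 85.0 and 49.6 in wild-type pools. Its differences were 0.16 against heterozygous embryos, of the opposite sign, and -0.13 against wild type. Ndufaf7, a methyltransferase acting on a core subunit of complex I, had 44.0 and 63.5 in knockout, 64.8, 60.3 and 68.8 in heterozygous and 72.6 and 72.0 in wild-type pools (-0.42, SE 0.22; adjusted p = 0.33), near the floor of the filter. Ndufaf4, by contrast, had 297.3 and 292.3 in knockout, 280.2, 319.4 and 281.0 in heterozygous and 290.1 and 230.8 in wild-type pools. Its other probe set, also past the filter, had differences of -0.10 against wild type and -0.25 against heterozygous embryos, so the contrast depends on the probe set. Over the 8 factors the median difference was -0.20 against wild type and -0.21 against heterozygous embryos, and the knockout pools lay wholly below wild type in 4 of 8, against 28.2% of all genes.

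**Figure D3:**
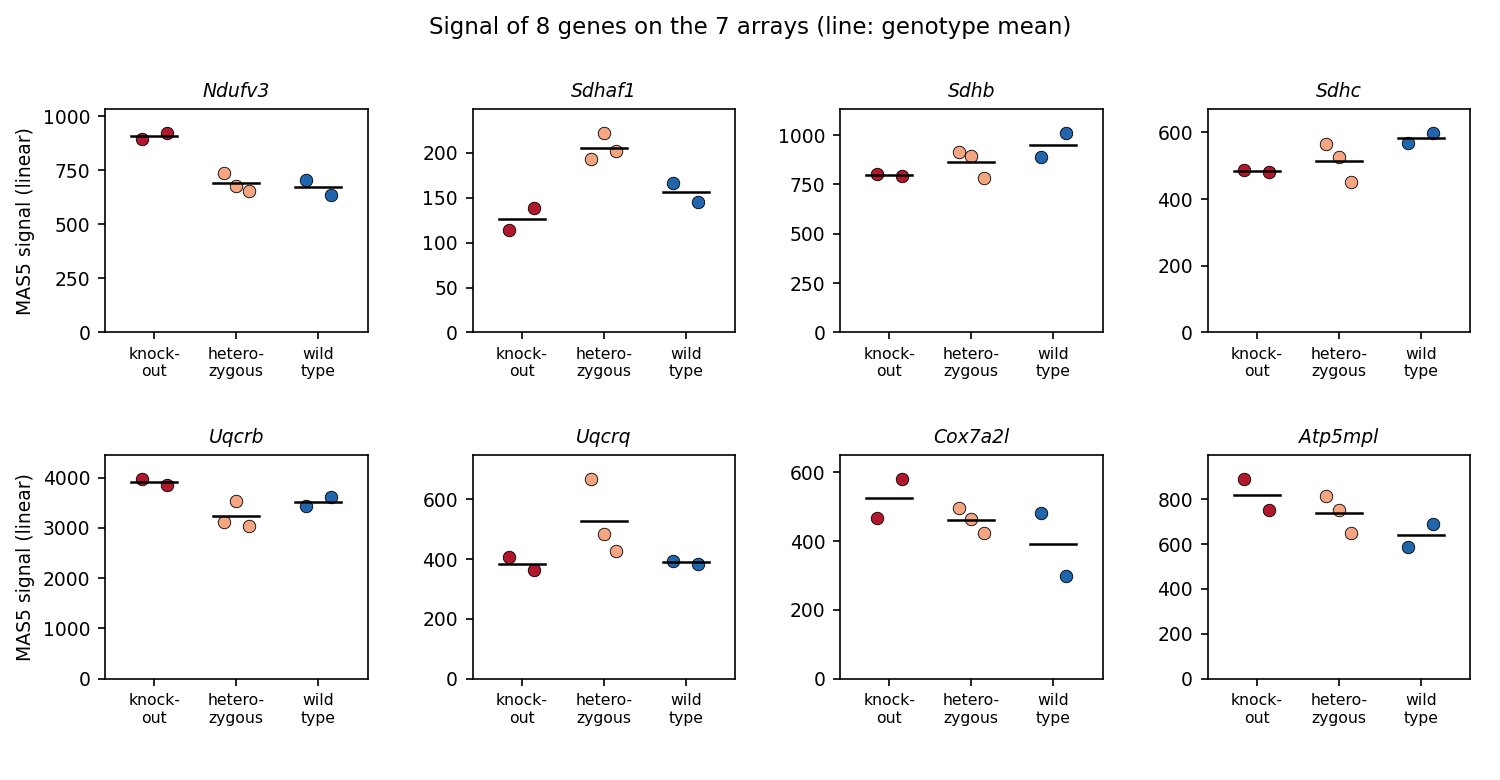
MAS5 signal (linear scale) of 8 members in each pool (points), with the mean of each genotype (lines). Both knockout pools of Ndufv3 lie above the other 5, and the 3 heterozygous pools of Sdhaf1 lie above both other genotypes.

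Complex III passes electrons from ubiquinol to cytochrome c. Its 8 members had a median log2 difference of 0.0026 between knockout and wild type and of -0.05 between knockout and heterozygous embryos. Cyc1, a further subunit of complex III, lies outside the name rule and is given below. Uqcrb, a small subunit at the ubiquinone-binding site, had signals of 3968 and 3861 in knockout, 3116, 3538 and 3042 in heterozygous and 3434 and 3615 in wild-type pools, so the knockout pools were the highest 2. Its difference was 0.28 against heterozygous embryos (SE 0.09; limma, adjusted p = 0.0938) and 0.15 against wild type (SE 0.10; adjusted p = 0.448). It passed against heterozygous embryos without heterozygous replicate 2 (adjusted p = 0.0433), and under quantile normalization the difference was -0.0041. Uqcrq, another small subunit, had 405.3 and 363.1 in knockout, 666.9, 484.1 and 428.3 in heterozygous and 393.1 and 383.7 in wild-type pools. All heterozygous pools lay above the others, with heterozygous replicate 1 the highest. The difference was -0.43 for knockout minus heterozygous (SE 0.17; limma, adjusted p = 0.163) and 0.41 for heterozygous minus wild type (SE 0.17; adjusted p = 0.999). Another probe set of Uqcrq, past the filter but near its floor, gave 0.0035 and 0.34, and there all genotypes overlapped.

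The larger subunits of complex III overlapped between genotypes. Uqcrc1, a core scaffold subunit, had 1051 and 1143 in knockout, 1569, 1108 and 910.5 in heterozygous and 1135 and 1319 in wild-type pools. Uqcrc2, its partner, had 672.1 and 621.3 in knockout, 801.6, 572.4 and 554.5 in heterozygous and 549.8 and 630.0 in wild-type pools. Heterozygous replicate 1 was highest for both. Uqcrfs1, the Rieske iron-sulphur protein, had 709.8 and 614.0 in knockout, 674.4, 686.2 and 612.9 in heterozygous and 579.8 and 728.1 in wild-type pools, which overlapped. Uqcrh, the hinge protein that helps cytochrome c dock, had the lowest difference, -0.20 (SE 0.12, 95% interval -0.47 to 0.07), with 701.3 and 874.4 in knockout, 957.8, 871.4 and 910.5 in heterozygous and 901.0 and 904.8 in wild-type pools. Unlike the larger subunits, Uqcrh had both knockout pools below both wild-type pools. Knockout replicate 1 was low for this gene, and without that array the difference was -0.05.

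Complex IV, cytochrome c oxidase, reduces oxygen, and several of its nuclear subunits exist as tissue isoforms. It had the highest median of the 5 complexes, 0.08 between knockout and wild type and 0.09 between knockout and heterozygous embryos, and 12 of its 15 tested members were above 0 in the first comparison, against 47.8% of all genes. The median against wild type was 0.0064 with the mean of all probe sets, 0.028 without knockout replicate 2 and 0.039 without wild-type replicate 2. Cox7a2l, which links complex III to complex IV in supercomplexes, had signals of 468.8 and 580.2 in knockout, 495.2, 464.0 and 423.5 in heterozygous and 481.8 and 299.4 in wild-type pools. The groups overlapped, and wild-type replicate 2 was the lowest. The difference of 0.45 against wild type (SE 0.20, 95% interval 0.003 to 0.90; limma, adjusted p = 0.259) was 0.11 without that array and 0.79 without wild-type replicate 1. The other 2 probe sets of Cox7a2l gave 0.14 and -0.17.

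Isoform families of complex IV could each be followed on their own scale. Cox4i1, the general isoform of a regulatory subunit, had 1742 and 1614 in knockout, 1610, 1460 and 1531 in heterozygous and 1442 and 1558 in wild-type pools. Its knockout pools were the highest 2, by 0.16 against wild type (SE 0.10; limma, adjusted p = 0.421). Cox4i2, the lung isoform whose gene is known to respond to low oxygen, had 66.5 and 72.2 in knockout, 50.6, 54.1 and 68.6 in heterozygous and 67.7 and 67.0 in wild-type pools, a difference of 0.04 (SE 0.21, 95% interval -0.43 to 0.50). Cox6a2, the isoform of heart and skeletal muscle, had 55.7 and 46.1 in knockout, 42.1, 58.6 and 54.4 in heterozygous and 57.6 and 56.8 in wild-type pools (-0.16, SE 0.23). The signals of Cox4i2 and Cox6a2 lay near the floor of the filter. Of 17 heart muscle markers tested, 2 fell between knockout and wild type (limma), Myl2 and Nppa, where 1.35% of all genes fell. Against heterozygous embryos 4 of the 17 fell, where 2.73% of all genes did. What part the heart muscle markers have in the value of Cox6a2 was not tested. Cox7a1, the muscle isoform below the filter, had 20.7 and 24.7 in knockout, 18.4, 20.3 and 15.8 in heterozygous and 22.9 and 16.9 in wild-type pools, and Cox8b, also below it, had between 2.0 and 12.4 on all arrays.

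Isoforms known from the testis were also above the filter. Cox6b2 averaged 57.6 ± 2.19 in knockout, 49.1 ± 7.16 in heterozygous and 48.9 ± 1.84 in wild-type pools, and Cox8c averaged 143.4 ± 11.8 in knockout, 136.8 ± 34.4 in heterozygous and 142.7 ± 14.1 in wild-type pools (SD, n = 2, 3 and 2). Their general counterparts Cox6b1 and Cox8a averaged 2012 ± 64.2 and 1060 ± 52.3 in knockout, 1720 ± 43.1 and 1050 ± 138 in heterozygous and 1868 ± 157 and 1005 ± 36.5 in wild-type pools. Cox6a1 averaged 2566 ± 385 in knockout, 2650 ± 110 in heterozygous and 2621 ± 70.8 in wild-type pools, and Ndufa4 averaged 1272 ± 17.3 in knockout, 1353 ± 117 in heterozygous and 1268 ± 42.1 in wild-type pools. Of these 6 genes, the knockout pools lay above all others for Cox6b2 alone, whose signals were near the floor of the filter. Cox5b, which binds zinc, had the lowest difference of the complex between knockout and wild type, -0.18 (SE 0.13), with 1784 and 1734 in knockout, 1623, 2112 and 1653 in heterozygous and 2034 and 1947 in wild-type pools. Another probe set of Cox5b had 2108 and 1816 in knockout and 1631 and 1659 in wild-type pools, a difference of 0.25 of the opposite sign.

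Against heterozygous embryos, 10 of the 15 complex IV members had differences above 0, against 47% of all genes. An unadjusted p under 0.05 (limma) was seen for 3 of the 15, a share no higher than the 22.8% of all genes. Cox6b1 differed by 0.23 (SE 0.09; limma, adjusted p = 0.162), Cox6c by 0.23 (SE 0.10; 0.195) and Cox7a2 by 0.20 (SE 0.09; 0.206), and for each the knockout pools lay above all heterozygous pools. Cox5b, Cox6a1, Cox6a2, Cox7c and Ndufa4 were the 5 below 0. Cox7a2, for example, had 2867 and 2872 in knockout, 2360, 2697 and 2462 in heterozygous and 2799 and 2717 in wild-type pools. None passed, and these values depended on the scaling. Under quantile normalization they were 0.11 for Cox6b1, 0.11 for Cox6c and 0.0054 for Cox7a2, and the median of the complex was also 0.0054.

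Complex V makes ATP in its F1 head, driven by a ring of c subunits in the membrane. Its 17 members had a median difference of 0.00087 between knockout and wild type and of 0.0012 between knockout and heterozygous embryos. Against wild type 4 of the 17 (23.5%) had an unadjusted p under 0.05 (limma), a share near the 19.1% of all genes. Atp5a1, the alpha subunit of the head, had signals of 2485 and 2375 in knockout, 2526, 2684 and 2500 in heterozygous and 2800 and 2835 in wild-type pools. Atp5o, the subunit that ties the head to the stalk, had 890.6 and 829.8 in knockout, 945.5, 1054 and 987.6 in heterozygous and 1004 and 1055 in wild-type pools. For both, the knockout pools were the lowest 2 of the 7. The differences against wild type were -0.21 for Atp5a1 (SE 0.09; limma, adjusted p = 0.224) and -0.26 for Atp5o (SE 0.10; adjusted p = 0.209), and Atp5o differed from heterozygous embryos by -0.21 (SE 0.09; adjusted p = 0.217). Another probe set of Atp5a1 had 1125 and 1158 in knockout and 1078 and 1116 in wild-type pools, a difference of 0.06 of the opposite sign. The other probe set of Atp5o gave -0.22 against wild type and 0.04 against heterozygous embryos, and its knockout pools overlapped both other genotypes. Atp5b, the catalytic beta subunit that pairs with Atp5a1, had 2219 and 2213 in knockout, 1903, 2171 and 1941 in heterozygous and 2228 and 2127 in wild-type pools, and its knockout and wild-type pools overlapped.

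The small membrane subunits of complex V went both ways. Atp5mpl, a small proteolipid, had 888.8 and 749.5 in knockout, 813.5, 752.1 and 649.3 in heterozygous and 584.7 and 691.4 in wild-type pools, a difference of 0.36 against wild type (SE 0.14, 95% interval 0.04 to 0.68; limma, adjusted p = 0.211). The knockout pools lay above both wild-type pools and overlapped the heterozygous ones. Atp5k, subunit e, which helps ATP synthases pair, had 1113 and 1276 in knockout, 1355, 1430 and 1205 in heterozygous and 1402 and 1458 in wild-type pools (-0.26, SE 0.11; adjusted p = 0.249). Another probe set of Atp5k had 1281 and 1228 in knockout and 947.3 and 1034 in wild-type pools, a difference of 0.34 of the opposite sign, and the third gave -0.18. Atp5l, subunit g, varied most within genotypes, with 303.5 and 251.9 in knockout, 517.4, 395.2 and 291.2 in heterozygous and 224.9 and 431.0 in wild-type pools.

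Atp5g1, Atp5g2 and Atp5g3 encode the same mature c subunit behind different import signals. Atp5g1 had 832.9 and 704.3 in knockout, 865.6, 879.1 and 592.0 in heterozygous and 833.3 and 903.2 in wild-type pools, a difference of -0.18 between knockout and wild type (SE 0.18). Atp5g2 had 1643 and 1451 in knockout, 1421, 1388 and 1417 in heterozygous and 1428 and 1492 in wild-type pools (0.08, SE 0.10). Atp5g3 had 3457 and 3569 in knockout, 2913, 3313 and 3131 in heterozygous and 3591 and 3770 in wild-type pools (-0.07, SE 0.09). The 3 differences did not share a sign. The heterozygous pools of Atp5g3 lay below both other genotypes, by -0.24 against wild type (SE 0.08; limma, adjusted p = 0.999).

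**Figure D4:**
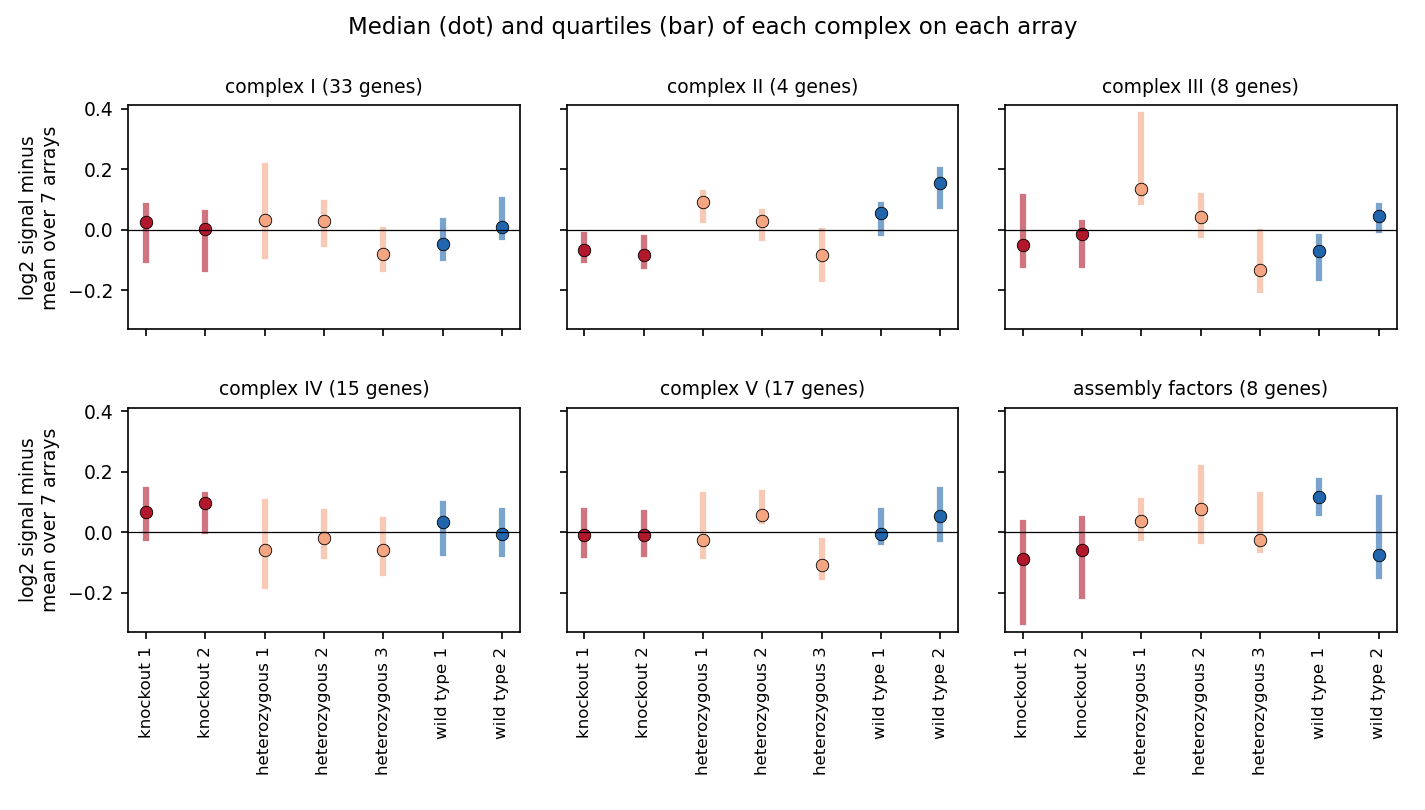
Median (dots) and quartiles (bars) over the members of each complex, and over the assembly factors, of the log2 signal minus the gene's mean over 7 arrays, for each array. Complex III is highest on heterozygous replicate 1 and lowest on heterozygous replicate 3, 2 arrays of the same genotype.

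Between knockout and heterozygous embryos, 2 of 85 members passed (limma), Ndufv3 higher and Sdhaf1 lower, against 5.85% of all genes, 3.12% higher and 2.73% lower. Without heterozygous replicate 2 there were 3, Sdhaf1, Uqcrb and Ndufa5, and without heterozygous replicate 3, knockout replicate 1 or knockout replicate 2 there were 0. At an unadjusted p under 0.05 there were 8 of 85, against 22.8%: Ndufv3, Uqcrb, Cox6b1, Cox6c and Cox7a2 higher, and Sdhaf1, Uqcrq and Atp5o lower. The 95% interval lay within 2-fold for 82 of 85, against 87.9% of all genes, and the exceptions were Atp5l, Ndufb1 and Sdhaf1. The knockout pools lay above the other 5 in 8 of 85 members, against 14.3% of all genes (Cox4i1, Cox6b2, Cox7a2, Ndufa1, Ndufa6, Ndufab1, Ndufv3 and Uqcrb). They lay below the other 5 in 8 of 85, against 16.5% (Atp5a1, Atp5o, Ndufa12, Ndufaf3, Ndufb10, Ndufv1, Sdhaf1 and Sdhaf2).

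Between heterozygous and wild-type embryos 0 of 85 members passed (limma), as did 0% of all genes, and 3 of 85 had an unadjusted p under 0.05 (Sdhaf1 and Uqcrq higher, Atp5g3 lower), against 3.52%. The median size of the difference was 0.10 for members and 0.11 for all genes. The 95% interval stayed within 2-fold for every member tested but Cox7c, whose interval reached 1.09, against 95.4% of all genes.

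Heterozygous replicate 1 was the highest of the 7 arrays for 23 of 85 members (27.1%), against 21.3% of all genes, and the lowest for 18 of 85 (21.2%), against 18.4%, so both shares were near those of all genes. By complex it was the highest for 5 of 8 members of complex III and 12 of 33 of complex I, and the lowest for 7 of 15 of complex IV. The medians of complex III, as log2 signal minus the mean over arrays, were -0.05 and -0.01 on the knockout arrays, 0.14, 0.04 and -0.13 on the heterozygous arrays and -0.07 and 0.05 on the wild-type arrays. For complex IV they were 0.07 and 0.10 on the knockout arrays, -0.06, -0.02 and -0.06 on the heterozygous arrays and 0.03 and -0.01 on the wild-type arrays. For complex II they were -0.07 and -0.08 on the knockout arrays, 0.09, 0.03 and -0.08 on the heterozygous arrays and 0.05 and 0.15 on the wild-type arrays. The spread among heterozygous arrays was thus as wide as any difference between genotypes in complex III, and knockout stood above the rest only in complex IV.

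Different probe sets of the same gene often disagreed in sign. Of 42 members with more than 1 probe set past the filter, 21 had probe sets of opposite sign between knockout and wild type, 25 between knockout and heterozygous and 17 between heterozygous and wild-type embryos. Some of these disagreements were as wide as the differences described, such as -0.26 against 0.34 for Atp5k, -0.18 against 0.25 for Cox5b, -0.04 against 0.40 for Ndufv2 and -0.08 against 0.42 for Uqcr10. Their cause was not tested. Ndufa12 had one sign, with its 3 probe sets past the filter at -0.25, -0.19 and -0.35 between knockout and wild type, and Uqcrb had 0.15 and 0.19.

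Other mitochondrial genes, grouped by function, passed between knockout and wild type in some lists and not in others. Of 18 genes of the TCA cycle and pyruvate dehydrogenase, 2 rose and 0 fell in that comparison, against 1.96% and 1.35% of all genes, and their median was -0.09. Pdk1, the kinase that switches pyruvate dehydrogenase off, had 471.3 and 484.0 in knockout, 303.6, 277.8 and 336.4 in heterozygous and 263.0 and 284.3 in wild-type pools, and rose by 0.80 (SE 0.13; limma, adjusted p = 0.0106). Pdha1, a catalytic subunit of the dehydrogenase itself, had 1227 and 1301 in knockout, 934.0, 1000 and 872.2 in heterozygous and 949.3 and 809.1 in wild-type pools, and rose by 0.53 (SE 0.12; adjusted p = 0.0381). For both, the knockout pools stood above all other arrays, and both also rose against heterozygous embryos, by 0.64 and 0.43. Dlst of the TCA cycle fell there by 0.43 (limma, adjusted p = 0.0419). Thus 2 of the 18 rose and 1 fell against heterozygous embryos, where 3.12% and 2.73% of all genes did. Against wild type, Pdk1 lost its call in 4 of the 19 other settings tried: without knockout replicate 1 (limma, adjusted p = 0.0816), knockout replicate 2 (0.104) or wild-type replicate 2 (0.0656), and with the replicate block (0.0537). Against heterozygous embryos it lost its call in 3 of 19, without knockout replicate 1 (0.104) or knockout replicate 2 (0.132) and with the block (0.065). Pdha1 lost its call in 8 of 19 against wild type, with adjusted p of 0.0511 to 0.302, and in 8 of 19 against heterozygous embryos, with 0.0527 to 0.257. Dlst lost its call against heterozygous embryos in 12 of 19, with 0.0508 to 0.715.

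Bnip3, a mitochondrial outer membrane protein of mitophagy induced by low oxygen, was the only one of 10 genes of mitophagy, fission and fusion to pass. Of all genes, 3.3% passed against wild type and 5.85% against heterozygous embryos. Bnip3 had 1624 and 1575 in knockout, 540.3, 545.4 and 494.7 in heterozygous and 491.1 and 466.0 in wild-type pools, and rose by 1.73 against wild type and by 1.60 against heterozygous embryos (SE 0.10 each; limma, adjusted p = 9.58e-05 and 4.39e-05). The call held in all 19 other settings. Cyc1 and Cycs belong to a group of respiratory chain genes outside the name rule, and neither passed. Cyc1, cytochrome c1, is a subunit of complex III, and Cycs, cytochrome c, carries electrons from complex III to complex IV. Cyc1 had 1121 and 1043 in knockout, 1273, 1306 and 1256 in heterozygous and 1299 and 1265 in wild-type pools. Its knockout pools were the lowest 2. Cycs had 1807 and 1885 in knockout, 1577, 1847 and 1931 in heterozygous and 2067 and 1909 in wild-type pools, with knockout within the heterozygous range. None of the 19 genes of that group passed (limma; 2 at an unadjusted p under 0.05), nor any of 6 of coenzyme Q synthesis (1), 23 of import (2), 14 of mitochondrial genome expression (2), 74 mitochondrial ribosomal proteins (13) or 10 carriers (1) between knockout and wild type. In that comparison 3.3% of all genes passed and 19.1% had an unadjusted p under 0.05. The medians of these lists ran from -0.11 for coenzyme Q synthesis to 0.18 for mitochondrial genome expression.

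**Figure D5:**
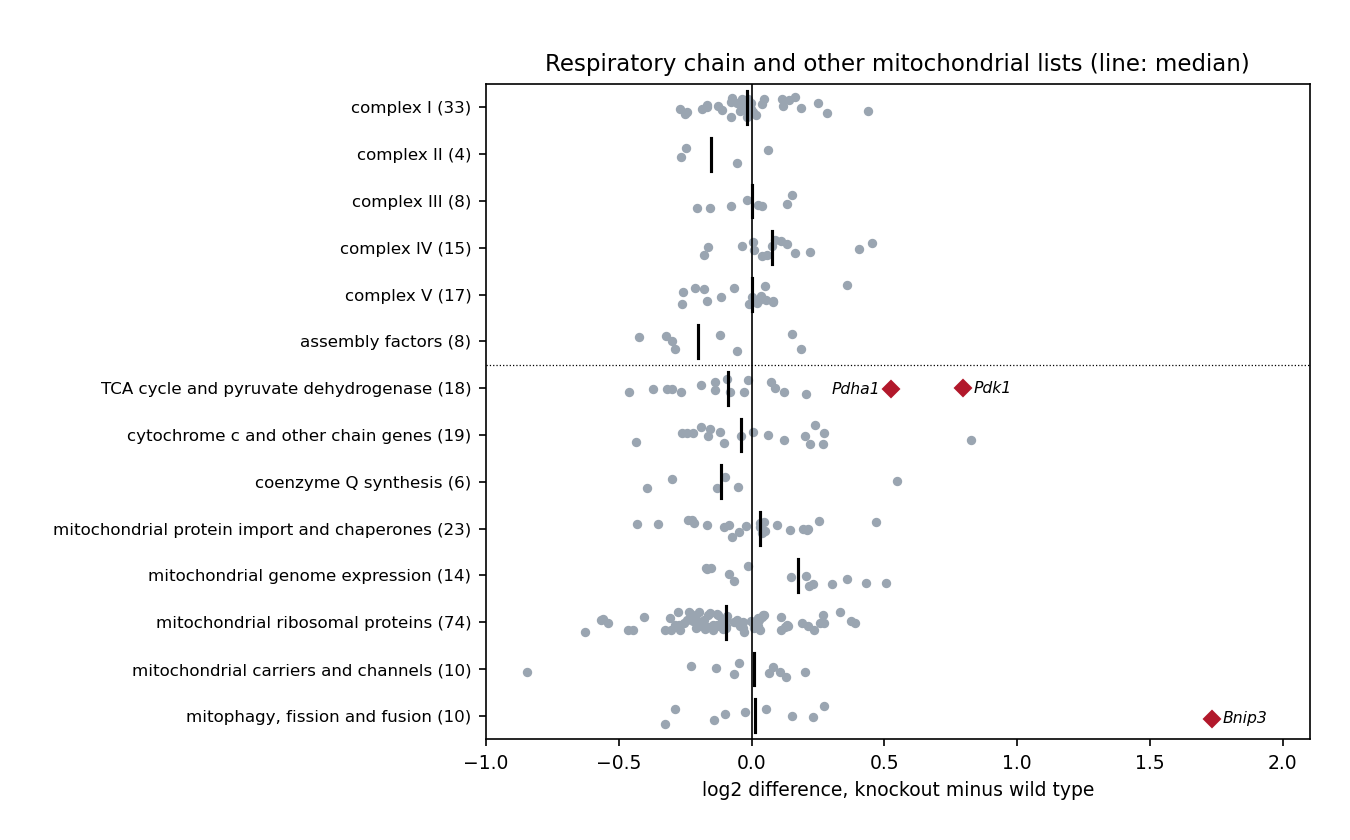
Log2 difference, knockout minus wild type, of each tested gene (dots) of the respiratory chain, above the dotted line, and of 8 other mitochondrial lists, below it, with the median of each (black lines) and the number of genes in brackets. Red diamonds mark the genes that passed (limma): Pdha1, Pdk1 and Bnip3, none of them in the respiratory chain.

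The mitochondrial ribosome, whose proteins translate the subunits made inside the organelle, had a median of -0.10 between knockout and wild type over 74 genes and of -0.07 between knockout and heterozygous embryos, against -0.01 over the 85 members in both comparisons. Against heterozygous embryos 2 of the 74 fell, a share like the 2.73% of all genes called lower there, Mrps18a (-0.83, SE 0.15; limma, adjusted p = 0.0142) and Mrps7 (-0.49, SE 0.11; 0.0381). Mrps18a had 242.7 and 194.6 in knockout, 453.5, 332.0 and 393.6 in heterozygous and 278.0 and 300.8 in wild-type pools. Like Sdhaf1, Mrps18a was lowest on the knockout arrays and highest on the heterozygous ones. Without knockout replicate 1 neither passed (limma, adjusted p = 0.0543 for Mrps18a and 0.206 for Mrps7), nor without knockout replicate 2 (0.151 and 0.184), and Mrps18a also lost its call with the replicate block (0.0705). Mrps7 lost its call in 11 of the 19 other settings in all.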

How the data were processed

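RNA of 7 pools of whole embryos was hybridised to Affymetrix 430A arrays, which read each gene with sets of 25-base probes. The deposited values are intensities on a linear scale, 1 signal per probe set and array, which the authors computed using MAS5 according to the submitters' processing notes. The version and scaling target: not given in the sources used here. With 2% trimmed from both tails, all 7 array means came to between 150.0 and 150.1. Signals are therefore relative to the array, and a change in an embryo's total RNA is invisible to them.

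Of 22690 probe sets 64 were controls. Of the other 22626, 20380 had 1 symbol in the platform annotation, 691 several and 1555 were not listed. Only single-symbol probe sets named genes, which left out 8 probe sets that list a member with another gene. The chosen probe sets of 12 members end in _s_at and of 6 in _x_at, which can bind related transcripts. Signals were taken as log2(signal + 3.8), a pseudocount equal to the 10th percentile of signals. Differences therefore understate the change of dim genes. Genes whose mean was under the 40th percentile of probe sets were left out, which kept 8019. All 7 arrays were fitted together with limma 3.58.1 in R 4.3.3 (lmFit, eBayes with an intensity trend, 4 residual and 6.06 prior degrees of freedom), two-sided, with Benjamini-Hochberg adjustment over all 8019 genes and a threshold of 0.05. The fit was tested on simulated data with added differences larger than that of any member. That test therefore does not tell how often differences of the members' size would be found. Intervals are limma's 95% intervals. Each pool came from its own embryos. The litter behind each pool was not known.

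The members and all gene lists were chosen with earlier results of these data known, so no test over a list was made. Named members were those past the threshold, the 2 highest and 2 lowest of each complex between knockout and wild type, and isoform families. The core subunits of complex I, further assembly factors, Uqcrq, Uqcrfs1, Cox6c, Ndufa5, Uqcr10, Atp5a1, Atp5b and Atp5l were added after their values were seen. The list genes named are those past the threshold, with Cyc1 and Cycs. Alternatives were other pseudocounts, filters, scalings and variance models, array weights, only 2 genotypes in the fit, the replicate number as a block, the mean of all probe sets, another way to choose the probe set and leaving out each array. The deviations of same-numbered pools from their genotype means correlated at -0.05 for knockout and wild type and 0.00 for knockout and heterozygous. For heterozygous and wild type they correlated at -0.30 and -0.29. With 2 pools in a genotype the 2 deviations mirror each other, so these values cannot tell whether same-numbered pools share a litter. The labels do not say that a number marks a litter, so the numbers were not taken to pair pools.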

Additional observations from a re-analysis of the deposited data

How the results depend on the processing

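The count of 0 members between heterozygous and wild-type embryos held in every alternative tried. Between knockout and wild type it was 1, Ndufv3, with array weights, with only the 2 genotypes in the fit and at an adjusted p of 0.1, and 0 to 1 when single arrays were left out. All genes past the threshold there numbered 512 with array weights, 162 with no filter, 173 with no intensity trend, 564 at an adjusted p of 0.1 and 36 to 403 with an array left out. Between knockout and heterozygous embryos 1 member, Sdhaf1, passed under median centring, with no filter, with no intensity trend and with only the 2 genotypes, and 0 to 3 with an array left out, while all genes numbered 308 with no filter, 247 with no intensity trend, 954 at 0.1 and 61 to 536 with an array left out. Between heterozygous and wild type, 0 to 1 of all genes passed with an array left out. Ndufv3 between knockout and heterozygous lost its call under median centring (adjusted p = 0.0520), with no filter (0.0671), with no intensity trend (0.116) and with only the 2 genotypes (0.0640). With the replicate block, 51 genes and 0 members passed between knockout and wild type. Between knockout and heterozygous it was 67 genes and 0 members (limma, adjusted p of Ndufv3 0.182 and of Sdhaf1 0.114). Whether the replicate numbers pair the pools is not known. The block also moved the medians of complex III (-0.18) and complex IV (0.12) between knockout and heterozygous and of complex IV (-0.044) between heterozygous and wild type. With the mean of all probe sets the median of complex IV was 0.0064 between knockout and wild type and -0.065 between heterozygous and wild type, and that of complex I between knockout and heterozygous was 0.046. The complex IV median between knockout and heterozygous was 0.040 with array weights and 0.0054 under quantile normalization. With single arrays left out the medians ran, between knockout and wild type, from 0.028 to 0.095 for complex IV, between knockout and heterozygous from -0.032 to 0.029 for complex I, -0.18 to 0.025 for complex III, 0.090 to 0.14 for complex IV and -0.015 to 0.074 for complex V, and between heterozygous and wild type from -0.18 to -0.035 for complex II and -0.044 to 0.0036 for complex IV. Signs turned between knockout and wild type for Atp5g2 (-0.21 with the mean of all probe sets, -0.0088 to 0.17 with an array left out), Cox4i2 (-0.017 to 0.095), Ndufs5 (-0.17 to 0.74) and Sdhd (-0.080 to 0.20), and between knockout and heterozygous for Uqcrb under quantile normalization (-0.0041). Choosing the probe set by mean log2 signal, an alternative chosen after seeing the data, moved none of these counts by over 1.5 times. The causes of these shifts were not tested. With 2 knockout pools, leaving out 1 assumes that the other varies like the rest.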
